A study of Mus musculus with 20 samples.

Results

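Microglia isolated 1 week after a full transection (FT) of the thoracic spinal cord were compared with microglia of non-injured (NI) mice. The comparison takes the 3 FT 1 week columns and the 3 NI columns of the normalized count table, 6 of its 20 samples, and covers all 16810 of its genes. Both groups came from adult male CX3CR1+/eGFP mice aged 12 weeks, in which 1 copy of *Cx3cr1* is replaced by enhanced green fluorescent protein, so the controls carry the same reporter as the injured mice. The reporter is active in microglia and also in blood monocytes. Cells with high fluorescence were sorted from 1 cm of cord around the lesion site, or from NI cord, cells of several mice were pooled for each library, and polyadenylated RNA was sequenced. The same procedure gave the FT 72 h (3 samples), FT 2 weeks (3 samples) and lateral hemisection (HS) 1 week (2 samples) groups that are used further on to place the FT 1 week values.

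Microglia are the resident macrophages of the central nervous system. In the intact cord they express a homeostatic set of genes that includes the purine receptor *P2ry12*, the surface protein *Tmem119* and the transcription factor *Sall1*. After a lesion they clear myelin and cell debris, and this brings large amounts of lipid and protein into the endosome and lysosome. Genes of phagocytosis, lysosomal digestion, cholesterol export and lipid transport form an activation program that is known from many lesions of nervous tissue. A separate program, the interferon response, is driven by factors such as STAT2 and IRF9, which bind a short DNA element upstream of their target genes. The p-values below measure the spread between the pooled samples of a group.

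Between 6.04 and 13.9 M reads lay on the listed genes in the NI libraries and between 11.8 and 14.2 M in the FT 1 week libraries. Values are in CPM, the read count of a gene scaled to the effective size of its library, which is the library size times a normalization factor. The NI libraries differed from each other by 0.382 to 0.447 on the log2 scale (root mean square over all genes), and FT 1 week replicates 2 and 3 differed by 0.425. FT 1 week replicate 1 stood apart from both, by 0.756 and 0.768. It was the lowest FT 1 week sample for 259 of the 480 genes called higher and the highest for 112 of the 201 genes called lower, so results that rest on it are given below with and without it. The microglial markers *Csf1r*, *P2ry12*, *Cx3cr1* and *Tmem119* were among the abundant genes of all 6 libraries, and the summed level of the 12 microglial markers was 24444 to 34229 CPM in NI and 20187 to 41394 CPM at FT 1 week.

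Differential expression (DE) was called where the limma adjusted p-value (Benjamini-Hochberg, over all genes) was under 0.05 and the groups differed by 2-fold or more, on the scale of log2(CPM + 0.5), which understates the change of genes of low level. At FT 1 week 480 genes (2.86% of those tested) were higher than in NI and 201 genes (1.2%) were lower, 4.05% in both directions. The changes were larger on the higher side. There, 101 genes had risen at least 4-fold and 27 at least 8-fold, whereas 21 genes had fallen at least 4-fold and 0 at least 8-fold; limma gave 3060 genes at an unadjusted p under 0.05 and the edgeR quasi-likelihood test called 775 genes (4.61%), 667 of them shared in direction. All FT 1 week samples lay above all NI samples for 474 of the 480 higher genes and below them for 198 of the 201 lower genes, beside 11.4% and 10.1% of all genes. The calls rest on the same values, so these counts describe the called genes and are no added evidence. With 1 library left out, 298 of the higher and 57 of the lower genes were called in all 6 fits.

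The balance of the directions depended on single libraries and on the scale of the columns. Without FT 1 week replicate 1, 628 genes (3.74%) were higher and 450 (2.68%) lower, and they included 426 and 168 of those called with all samples. The number of lower genes was 95 without NI replicate 2 and 112 without NI replicate 1 or FT 1 week replicate 3. With only the FT 1 week and NI samples in the fit, 405 genes were higher and 190 lower. The deposited columns do not have 1 total, with 777426 to 830481 CPM in NI and 878070 to 1118932 CPM at FT 1 week, as they are scaled to effective library sizes. The TMM normalization of edgeR, applied to reads recovered from the values, again gave 480 higher and 201 lower genes. Scaled to 1 total, 236 genes (1.4%) were higher and 670 (3.99%) lower, the share of higher genes was 26.05% in place of 70.48%, and the median over all genes moved on the log2 scale from -0.03 to -0.32. These 236 genes were all among the 480, and the 201 genes were all among the 670.

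The largest rise on this scale was that of *Gpnmb*, a transmembrane glycoprotein of phagocytic macrophages, whereas with 0.1 CPM added *Saa3* was above it (6.53 beside 6.39). It had 2.80, 2.57 and 3.36 CPM in the NI samples and 223, 246 and 291 CPM at FT 1 week, a log2 fold change of 6.22 (SE 0.29, limma adjusted p = 6.08e-12). Every FT 1 week sample was thus far above every NI sample, and the fold was 74.3. Apolipoprotein genes held 3 further places among the 10 largest rises. *Apoc1* went from 2.26, 2.45 and 2.21 CPM to 165, 105 and 179 CPM (log2 fold change 5.71, SE 0.21, limma adjusted p = 7.95e-14). *Igf1*, an insulin-like growth factor, went from 8.34, 5.79 and 8.73 CPM to 139, 208 and 239 CPM (log2 fold change 4.57). *Spp1*, which encodes osteopontin, a secreted ligand of integrins and of CD44, went from 79.4, 94.8 and 108 CPM to 1459, 2036 and 2894 CPM (log2 fold change 4.45). The 10 genes, which were chosen among those whose groups do not overlap (with *Gpx3*, *Apoc2*, *Apoc4*, *Cst7*, *Saa3* and *Cxcl13*), were called in all 6 fits that left out 1 library.

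*Gpx3* encodes a secreted glutathione peroxidase and *Cst7* an inhibitor of lysosomal cathepsins. *Gpx3* rose from 5.06, 4.12 and 3.07 CPM to 83.1, 108 and 126 CPM (log2 fold change 4.54) and *Cst7* from 20.3, 24.8 and 34.0 CPM to 400, 436 and 686 CPM (log2 fold change 4.23). *Saa3*, an acute-phase protein made by macrophages, and *Cxcl13*, a chemokine for B cells, were close to the limit of detection in NI, where 3 reads correspond to 0.179 to 0.386 CPM. *Saa3* had 5, 3 and 3 reads in the NI libraries and 36.6, 32.1 and 50.4 CPM at FT 1 week. *Cxcl13* had 4, 3 and 3 reads in NI and 18.3, 16.6 and 30.0 CPM at FT 1 week. Their log2 fold changes of 5.58 and 4.74 depend on the value added to the CPM, being 6.53 and 5.72 with 0.1 CPM and 4.92 and 4.07 with 1 CPM.

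**Figure D1:**
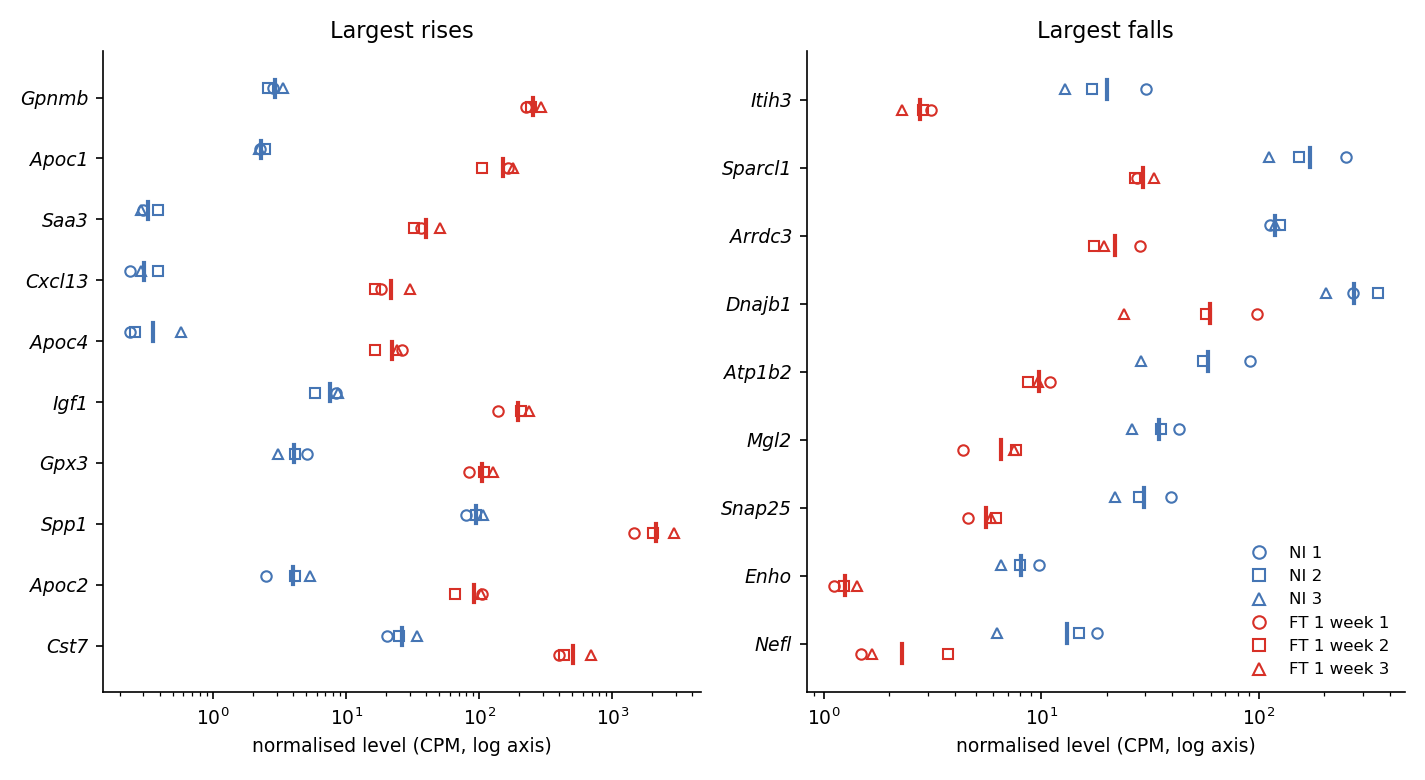
Levels of the 10 largest rises (left) and 9 of the 10 largest falls (right) in each NI (blue) and FT 1 week (red) sample, in CPM on a log axis, with vertical bars at group means. Only genes whose groups do not overlap were eligible, and they run from Gpnmb (2.57 to 3.36 CPM in NI, 223 to 291 CPM at FT 1 week) to Nefl (6.23 to 18.0 CPM in NI, 1.48 to 3.71 CPM at FT 1 week).

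Of the 10 largest falls, 3 were listed markers of astrocytes, among them *Itih3* and *Atp1b2*, and 2 of neurons (*Snap25* and *Nefl*). *Itih3* fell from 30.3, 17.1 and 12.9 CPM to 3.11, 2.86 and 2.29 CPM (log2 fold change -2.58), and *Enho*, which encodes a secreted peptide, from 9.77, 7.98 and 6.52 CPM to 1.11, 1.24 and 1.42 CPM (-2.28). *Sparcl1*, a secreted matricellular protein, had 252, 153 and 111 CPM in NI and 27.6, 27.0 and 32.8 CPM at FT 1 week (log2 fold change -2.46, SE 0.52, limma adjusted p = 0.00391). *Atp1b2* was not DE without NI replicate 1 (log2 fold change -1.98, limma adjusted p = 0.077) or NI replicate 2 (-2.33, 0.051), nor was *Nefl* without NI replicate 1, NI replicate 2 or FT 1 week replicate 3 (-1.96, -2.09 and -2.10). Among genes of the macrophage lineage, *Mgl2*, a lectin receptor, fell from 42.8, 35.5 and 26.2 CPM to 4.37, 7.66 and 7.49 CPM (log2 fold change -2.34, SE 0.39, limma adjusted p = 0.000397). *Arrdc3*, an arrestin-domain protein, had 113, 125 and 118 CPM in NI and 28.3, 17.5 and 19.5 CPM at FT 1 week (log2 fold change -2.45).

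The 681 DE genes were then read through lists of genes with known roles, to which 200 of them belong. These lists were chosen with earlier results of these data known, so their counts describe the data and are no independent evidence. The counts stand beside 2.86% of all genes higher and 1.2% lower. The activation list of microglia moved almost as a whole. Of its 33 genes, 29 rose, 0 fell and 4 were not DE, with a median log2 fold change of 1.70 beside -0.03 over all genes, and 25 were called in every fit that left out 1 library. Without FT 1 week replicate 1 it held 28 higher genes, and with columns scaled to 1 total 22. All 33 had their 3 FT 1 week values above the 3 NI values, beside 11.4% of all genes. *Trem2*, the lipid receptor that is required for this program in other models, was not DE (1733, 1739 and 1807 CPM in NI, 2635, 2392 and 2700 CPM at FT 1 week, log2 fold change 0.55, limma adjusted p = 0.187), nor were *Timp2*, *Ccl6* and *Cd83*. Its signaling adaptor *Tyrobp* rose from 1581, 1601 and 2093 CPM to 4485, 3008 and 4328 CPM (log2 fold change 1.15, limma adjusted p = 0.00611).

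**Figure D2:**
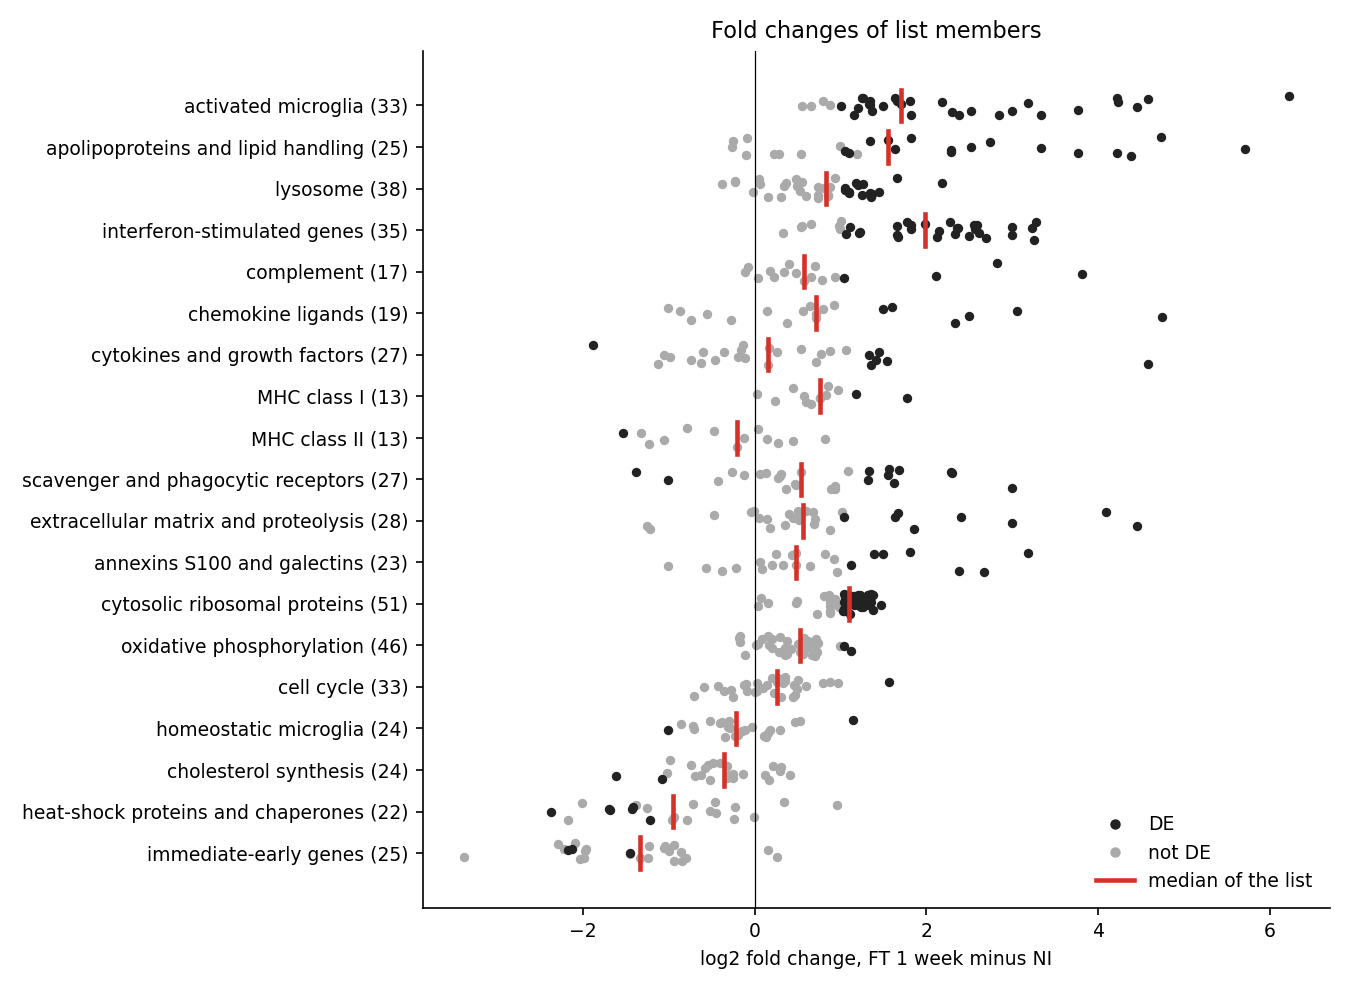
Log2 fold changes of FT 1 week against NI for the members of 19 lists (number of genes in parentheses), each point a gene, black where DE and gray where not, with the list median in red. Interferon-stimulated genes and activated microglia have the highest medians (1.98 and 1.70), and heat-shock and immediate-early genes the lowest (-0.95 and -1.34).

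Genes of lipid transport and storage rose together. Of 25 genes, 16 were higher and 0 lower, with a median log2 fold change of 1.55, and 14 were called in all 6 fits that left out 1 library. The 4 largest rises were those of neighboring genes, *Apoc1*, *Apoc4*, *Apoc2* and *Apoe*, which lie within chr7:19671579-19701310 (GRCm38) and encode proteins of lipoprotein particles. *Apoc2*, the activator of lipoprotein lipase, went from 2.50, 4.12 and 5.37 CPM to 106, 66.2 and 103 CPM (log2 fold change 4.38). *Apoc4* had 4, 2 and 6 reads in the NI libraries and 26.2, 16.6 and 24.1 CPM at FT 1 week, and its log2 fold change was 4.73, or 5.66 with 0.1 CPM added and 4.09 with 1 CPM added. *Apoe*, the main lipid carrier made by glia, was by far the most abundant of the cluster and also the most variable between replicates. It had 508, 939 and 283 CPM in NI and 11411, 17034 and 4468 CPM at FT 1 week (log2 fold change 4.21, SE 0.78, limma adjusted p = 0.00131). Reads of neighboring or overlapping genes are assigned by the annotation, and the libraries do not keep the strand.

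Other steps of the lipid pathway followed. *Ch25h*, which makes the oxysterol 25-hydroxycholesterol, went from 6.97, 8.24 and 6.91 CPM to 68.6, 121 and 143 CPM (log2 fold change 3.76). Lipoprotein lipase, *Lpl*, went from 64.1, 72.5 and 67.0 CPM to 449, 820 and 889 CPM (log2 fold change 3.34). The cholesterol exporters also rose, *Abcg1* from 147, 138 and 108 CPM to 444, 722 and 800 CPM (log2 fold change 2.29) and *Abca1* by 1.82 on the log2 scale, as did the lipid droplet protein *Plin2* (1.63) and the fatty acid carriers *Fabp3* (2.74) and *Fabp5* (2.52). In contrast, the scavenger receptor *Cd36* (log2 fold change -0.26) and the nuclear receptor genes *Pparg* (-0.26) and *Nr1h3* (0.23) were not DE. Enzymes of cholesterol synthesis were 0 higher and 2 lower of 24, with a median of -0.36, and 0 of them held in all 6 fits that left out 1 library. Of these, *Idi1* (log2 fold change -1.08) was not DE without NI replicate 2 (-1.0) or FT 1 week replicate 1 (-0.82).

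Lysosomal genes shifted upward with smaller folds. Of 38 genes, 15 were higher and 0 lower, with a median log2 fold change of 0.83 and 34 positive values. The number depended on the fit, being 19 without FT 1 week replicate 1, 10 and 9 without replicates 2 and 3, 5 with columns scaled to 1 total and 3 with quantile normalization, and 8 genes were called in all 6 fits that left out 1 library. *Cd63*, a tetraspanin of late endosomes, had 451, 364 and 474 CPM in NI and 1610, 1723 and 2601 CPM at FT 1 week (log2 fold change 2.18, SE 0.23, limma adjusted p = 1.37e-06). The protease gene *Ctsb* had 5296, 4568 and 4039 CPM in NI and 9255, 18062 and 18245 CPM at FT 1 week (log2 fold change 1.65), with replicate 1 the lowest of its group yet above all NI samples. Progranulin, *Grn*, rose by 1.44, beta-galactosidase, *Glb1*, by 1.36, and the cholesterol transfer protein *Npc2* by 1.35 on the log2 scale. *Ctsd*, the most abundant protease gene of the list, went from 14524, 13833 and 13521 CPM to 23384, 44294 and 43149 CPM (log2 fold change 1.35, limma adjusted p = 0.0308) and was DE in only 1 of the 6 fits, that without FT 1 week replicate 1; in the others its log2 fold change was 1.19 to 1.38 with a limma adjusted p of 0.082 to 0.12. Cathepsin S, *Ctss* (0.53), was not DE.

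A palindromic E-box, CACGTG, is part of the element through which TFEB and related factors act on lysosomal genes. It was searched on both strands in the window from 250 bases before to 50 bases after each transcription start (RefSeq, GRCm38.p6), which was given for 13184 of the 16810 genes. It was found in 9 of 30 lysosomal genes with a window (30.0%), in 2 of 18 lipid genes (11.1%) and in 9.38% of all windows. The stretches of 4 lysosomal genes that rose are printed to show the element, written on the strand of the gene with the E-box in capitals. They belong to *Ctsl* (chr13:64370731-64370770, minus strand), *Glb1* (chr9:114401010-114401055, plus strand), *Gaa* (chr11:119267803-119267848, plus strand) and *Atp6v1a* (chr16:44139365-44139410, minus strand).
Ctsl: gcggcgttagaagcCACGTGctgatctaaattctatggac
Glb1: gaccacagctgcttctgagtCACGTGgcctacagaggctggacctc
Gaa: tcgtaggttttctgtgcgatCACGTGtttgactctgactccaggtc
Atp6v1a: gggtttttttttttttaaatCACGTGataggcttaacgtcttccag

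The expression of these 4 genes differed in how firmly it rose. *Glb1* had 59.9, 65.6 and 68.2 CPM in NI and 119, 196 and 198 CPM at FT 1 week and was DE in every fit that left out 1 library. *Ctsl* (log2 fold change 1.18) lay under the 2-fold limit without FT 1 week replicate 3 (0.96), and *Gaa* (1.05) and *Atp6v1a* (1.10), a subunit of the proton pump that acidifies lysosomes, did so without replicate 2 (0.93 and 0.94) or replicate 3 (0.94 and 0.93). A match in the window is a description of the sequence and was not tested as a site.

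Interferon-stimulated genes, which cells induce against viruses, had a median log2 fold change of 1.98. Of 35 genes, 28 rose, 0 fell and all 35 had a positive log2 fold change, and 26 were called in all 6 fits that left out 1 library. The largest rise was that of *Iigp1*, an interferon-inducible GTPase, from 1.97, 2.57 and 1.06 CPM to 7.71, 32.8 and 38.6 CPM (log2 fold change 3.27, SE 0.47, limma adjusted p = 9.07e-05). *Ifit2*, which binds viral RNA complexes, had 13.8, 11.7 and 12 CPM in NI and 45.5, 182 and 211 CPM at FT 1 week (log2 fold change 3.22). In both, replicate 1 was well under replicates 2 and 3 and still above NI. *Oasl2* (3.25), *Ifit3* (3.00), the nucleic acid sensor *Zbp1* (3.00) and *Irf7* (2.69), the factor that amplifies the interferon response, followed. Not every member was lower in replicate 1. *Isg15*, a ubiquitin-like modifier, had 8.88, 9.91 and 11.1 CPM in NI and 46.0, 44.0 and 61.4 CPM at FT 1 week (log2 fold change 2.27), and *Zbp1* had 22.4 CPM in replicate 1 beside 17.8 and 29.2 CPM. Without replicate 1 the list held 32 higher genes and a median of 2.30, and with columns scaled to 1 total 24 and 1.64. Among the factors that transmit the signal, *Stat2* rose by 1.11 on the log2 scale and *Irf9* was not DE (0.33).

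The element bound by these factors was searched as GAAANNGAAA on both strands of the same windows, with overlapping matches counted together. It was present in 17 of the 26 interferon-stimulated genes with a window (65.4%) and in 3.11% of all windows. Because the list moved together, the stretches of 4 of its genes are printed on the strand of the gene with matches in capitals, where a match on the opposite strand reads as TTTC repeats. They belong to *Isg15* (chr4:156200855-156200916, minus strand), *Ifit3* (chr19:34583353-34583436, plus strand), *Cxcl10* (chr5:92349073-92349122, minus strand) and *Rsad2* (chr12:26456543-26456592, minus strand).
Isg15: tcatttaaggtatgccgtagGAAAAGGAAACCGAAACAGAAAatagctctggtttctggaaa
Ifit3: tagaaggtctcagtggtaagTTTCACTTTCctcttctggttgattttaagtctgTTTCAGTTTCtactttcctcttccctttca
Cxcl10: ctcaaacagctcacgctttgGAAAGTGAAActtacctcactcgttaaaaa
Rsad2: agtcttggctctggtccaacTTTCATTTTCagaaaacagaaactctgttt

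These windows differ in the number of matches, with 3 that overlap in *Isg15*, 2 in *Ifit3* and 1 each in *Cxcl10* and *Rsad2*. The matches nearest to the start ended at position -56 in *Isg15*, -112 in *Ifit3*, -203 in *Cxcl10* and -110 in *Rsad2*, counted from the transcription start. The 4 genes had log2 fold changes of 2.27, 3.00, 2.49 and 2.55, respectively, and all were called in every fit that left out 1 library.

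Of 17 complement genes 4 rose and 0 fell. *C3*, on which all activation routes converge, rose from 6.20, 7.46 and 6.91 CPM to 88.8, 113 and 107 CPM (log2 fold change 3.81, SE 0.21, limma adjusted p = 8.99e-11). Factor B of the alternative route, *Cfb*, went from 2.44, 1.54 and 1.53 CPM to 4.82, 27.4 and 28.9 CPM (log2 fold change 2.82, or 3.63 without replicate 1), and *C4b* from 20.4, 17.4 and 13.6 CPM to 39.5, 103 and 102 CPM (2.11, or 2.56 without replicate 1). A further gene, *C1ra*, had a low level and a log2 fold change of 1.04, and was lost without NI replicate 2 or 3 (0.93 and 0.81) and without FT 1 week replicate 2 or 3 (0.96 and 1.02). The other 13 genes were not DE, among them the C1q chains *C1qa* (0.48), *C1qb* (0.57) and *C1qc* (0.66), which microglia express at high levels, and the receptor *C5ar1* (-0.11).

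Among 19 chemokine ligands 6 rose and 0 fell, all 6 in every fit that left out 1 library. *Cxcl13* was the largest. *Ccl5*, a chemokine for T cells and monocytes, went from 7.69, 10.3 and 10.9 CPM to 71.4, 76.1 and 106 CPM (log2 fold change 3.06, limma adjusted p = 9.65e-08). The CXCR3 ligands *Cxcl10* and *Cxcl9*, both induced by interferon, rose by 2.49 and 2.33 and the monocyte chemokine *Ccl12* and the membrane-bound *Cxcl16* by 1.60 and 1.49 on the log2 scale. Other ligands of monocyte receptors were not DE. *Ccl2* had 307, 491 and 585 CPM in NI and 295, 298 and 313 CPM at FT 1 week (log2 fold change -0.56, limma adjusted p = 0.635), *Ccl3* had a log2 fold change of 0.65 and *Ccl4* of 0.38.

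Cytokines and growth factors had 6 higher and 1 lower gene of 27, with a median of 0.15. Besides *Igf1* and *Grn*, the higher genes were *Il12b* (0.953, 0.901 and 1.25 CPM in NI, 4.22, 3.56 and 4.02 CPM at FT 1 week, log2 fold change 1.54), *Mif* (1.41), *Il1rn*, the interleukin-1 receptor antagonist (1.35, not DE without NI replicate 1, 1.26), and *Csf1*, the growth factor of microglia. *Csf1* had 177 CPM in FT 1 week replicate 1 and 78.9 and 66.4 CPM in the others, beside 28.7, 46.7 and 42.1 CPM in NI, and its log2 fold change went from 1.33 to 0.91 without replicate 1. *Hbegf*, with the most negative log2 fold change of the list, overlapped between groups (19.7, 14.3 and 15.3 CPM in NI, 14.6, 2.01 and 1.97 CPM at FT 1 week). It was DE in only 1 of the 6 fits, that without FT 1 week replicate 1. Its log2 fold change was -1.88 with all samples and -1.97 to -1.44 in the other 5. The list also held 1 lower gene without FT 1 week replicate 2 or 3 or NI replicate 2 or 3, there another member, and 0 without NI replicate 1. The classical inflammatory cytokines were not DE. *Il1b* had 46.0, 65.2 and 82.1 CPM in NI and 156, 42.5 and 53.4 CPM at FT 1 week (log2 fold change 0.17, limma adjusted p = 0.939). *Tnf* had 64.5, 73.9 and 74.3 CPM in NI and 128, 28.2 and 27.4 CPM at FT 1 week (-0.61, 0.729), and *Il6* was at 5.68 to 12.8 CPM in all 6 samples (-0.75, 0.44). For *Il1b* and *Tnf*, FT 1 week replicate 1 was above all NI samples, while replicate 2 was below all of them.

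Genes of antigen presentation were read by class, and the difference between the classes was not tested. For class I, 2 of 13 genes rose and 0 fell, and all 13 had a positive log2 fold change (median 0.76). *Nlrc5*, the transcriptional regulator of class I genes, had 10.5, 12 and 10.2 CPM in NI and 31.0, 48.4 and 37.3 CPM at FT 1 week (log2 fold change 1.77). The invariant chain of class I, *B2m*, rose from 3662, 2845 and 3899 CPM to 7069, 6656 and 10161 CPM (log2 fold change 1.19, limma adjusted p = 0.0282), and was not DE without any 1 of the NI samples or FT 1 week replicate 3 (1.23, 1.05, 1.28 and 1.00). For class II, 0 of 13 genes rose and 1 fell. This gene, *H2-Eb1*, had 255, 239 and 258 CPM in NI and 56.7, 84.8 and 133 CPM at FT 1 week (log2 fold change -1.53, limma adjusted p = 0.0143) and was not DE without NI replicate 3 (-1.51). *H2-Aa* (-1.32, limma adjusted p = 0.0551), *H2-Ab1* (-1.23) and the invariant chain gene *Cd74* (-1.05) had their FT 1 week values below the NI values and did not pass. These loci have close paralogs, so reads may have been divided between them wrongly.

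Receptors of phagocytosis were 9 higher and 2 lower of 27. *Clec7a*, the receptor of beta-glucans, rose from 63.7, 79.4 and 84.5 CPM to 404, 712 and 775 CPM (log2 fold change 3.00), the receptor kinase *Axl* from 66.9, 86.4 and 82.9 CPM to 277, 463 and 449 CPM (2.30), and the scavenger receptor *Msr1* from 15.4, 8.37 and 10.7 CPM to 31.1, 72.2 and 80.4 CPM (2.29). *Colec12* (1.68), the Fc receptor gene *Fcgr4* (1.62) and *Gas6*, the ligand of AXL (1.32), also rose, while the related kinase gene *Mertk* was not DE (0.14). Both lower genes, *Mrc1* and *Cd163*, are receptors of perivascular and meningeal macrophages. *Mrc1* had 69.5, 57.1 and 53.7 CPM in NI and 25.4, 30.0 and 33.1 CPM at FT 1 week (log2 fold change -1.01) and lay under the 2-fold limit without NI replicate 1 or FT 1 week replicate 1 (-0.91 each). *Cd163* differed by -1.38 on the log2 scale (limma adjusted p = 0.0458) and was DE in 0 of the 6 fits that left out 1 library (-1.56 to -1.20).

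Secreted and matrix genes were 8 higher and 0 lower of 28 (median 0.56), 7 of them in every fit that left out 1 library. After *Spp1*, fibronectin, *Fn1*, rose from 13.5, 13.9 and 11.4 CPM to 167, 287 and 247 CPM (log2 fold change 4.09, SE 0.30, limma adjusted p = 5.60e-09). *Ecm1* (2.99), the sheddase *Adam8* (2.41), the crosslinking enzyme *Lox* (1.85) and the urokinase receptor *Plaur* (1.67) followed. Fibrillar and basement membrane collagens were not DE, as *Col1a1* (0.40), *Col3a1* (0.60) and *Col4a1* (-0.04). Of the surface receptors for these ligands, *Cd44* rose from 13, 14.2 and 14.5 CPM to 33.4, 56.2 and 65.1 CPM (1.80) and *Itgax* from 13.9, 16.1 and 15.8 CPM to 47.3, 52.1 and 52.9 CPM (1.70), whereas *Itga9* fell from 59.2, 66.9 and 63.3 CPM to 23.5, 25.5 and 20.2 CPM (-1.44, limma adjusted p = 2.36e-06). Of 14 integrin genes and osteopontin receptors, 3 were higher and 1 lower. The galectin genes *Lgals3* (3.19) and *Lgals1* (1.81), the galectin ligand *Lgals3bp* (2.67) and the annexins *Anxa2* (2.38), *Anxa5* (1.49) and *Anxa4* (1.39) rose, among 7 higher and 0 lower of 23 genes.

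The homeostatic list behaved differently from the activation list. Of its 24 genes 1 rose, 1 fell and 22 were not DE, with a median of -0.21 (-0.02 without FT 1 week replicate 1). The gene that rose was *Fcrls*, an Fc receptor-like scavenger receptor, from 1912, 1612 and 1615 CPM to 2646, 4637 and 4416 CPM (log2 fold change 1.15). *Slc2a5*, a fructose transporter, fell from 609, 479 and 438 CPM to 171, 305 and 300 CPM (-1.01) and was lost without NI replicate 1 (-0.87) or FT 1 week replicate 1 (-0.73). *P2ry12* had 5085, 3845 and 3739 CPM in NI and 1182, 3668 and 3843 CPM at FT 1 week. Replicates 2 and 3 thus lay in the range of NI or just below it, and the log2 fold change went from -0.71 (limma adjusted p = 0.277) to -0.16 (0.73) without replicate 1. *P2ry13* and the fractalkine receptor gene *Cx3cr1* had the same form, with 464 and 1158 CPM in replicate 1, 1172 and 2644 CPM in replicate 2 and 1132 and 2536 CPM in replicate 3. *Tmem119* did not. It had 1196, 1263 and 1257 CPM in NI and 855, 559 and 671 CPM at FT 1 week, so that it differed by -0.86 on the log2 scale (limma adjusted p = 0.0166), under the 2-fold limit, and reached -1.02 (0.0036) without replicate 1. With columns scaled to 1 total the median was -0.56 and 4 genes were lower and 0 higher. *Sall1* (369, 383 and 375 CPM in NI, 272, 358 and 301 CPM at FT 1 week) was not DE. In the lists of microglial transcription factors, purine receptors and TGF-beta signaling, which maintains the homeostatic state, 1 of 45 genes was DE, *Bhlhe40*, from 12, 9.78 and 6.52 CPM to 33.4, 63.4 and 59.5 CPM (log2 fold change 2.39). Without FT 1 week replicate 1 these lists held more DE genes, with *Bhlhe40* (2.68) and *Tfec* (1.66) higher and *Jun* (-2.89) and *Junb* (-1.81) lower among the transcription factors, *P2ry14* (1.38) and *P2rx4* (1.26) higher among the purine receptors, and *Smad7* (-1.52) lower in TGF-beta signaling. These genes were chosen after their values were seen.

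Immediate-early genes, which are transcribed within minutes of a stimulus, separated FT 1 week replicate 1 from the rest. The summed level of the 25 genes was 9223, 14588 and 14514 CPM in NI and 9314, 3494 and 2839 CPM at FT 1 week. *Fos* had 1604, 2879 and 2806 CPM in NI and 1445, 420 and 314 CPM at FT 1 week, and *Fosb* had 281, 548 and 540 CPM in NI and 343, 21.1 and 9.46 CPM at FT 1 week. Replicate 1 was thus at or near the level of NI, and replicates 2 and 3 were far below it. With all samples 3 of the 25 genes fell, *Atf3* (log2 fold change -2.17), *Egr2* (-2.13) and *Klf6* (-1.46). Without replicate 1, 18 of 25 fell and the median went from -1.34 to -1.88. Without replicate 2 or without replicate 3, 0 fell, and *Atf3* then had -2.10 and -1.50, *Egr2* -1.94 and -1.88 and *Klf6* -1.33 and -1.29. Leaving out NI replicate 1, 2 or 3 gave 2, 0 and 0 genes. *Fosb* differed by -3.38 on the log2 scale (limma adjusted p = 0.0644) with all samples and -4.90 (0.0027) without replicate 1.

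Most heat-shock genes were lower, and 20 of 22 had a negative log2 fold change. For 15 of the 22 all FT 1 week values lay below all NI values, beside 10.1% of all genes. With columns scaled to 1 total 12 fell. The position of replicate 1 differed between the heat-shock genes. Their summed level was 11409, 11665 and 11865 CPM in NI and 5626, 8854 and 9314 CPM at FT 1 week, so that replicate 1 was the furthest from NI, and the median log2 fold change was -0.95 with all samples and -0.72 without replicate 1. Some inducible members had the form of *Fosb*. *Hspa1a*, the inducible HSP70, had 140, 139 and 169 CPM in NI and 123, 16.0 and 17.1 CPM at FT 1 week (log2 fold change -2.18, limma adjusted p = 0.0938, and -3.13, 0.0073, without replicate 1). Of 22 genes 6 fell and 0 rose with all samples, 9 fell without replicate 1, 5 fell and 1 rose without replicate 2, and 1 fell and 1 rose without replicate 3. Without NI replicates 1, 2 and 3, respectively, 4, 1 and 2 fell. *Dnajb1*, an HSP40 cochaperone, fell most, from 269, 351 and 203 CPM to 98.2, 57.2 and 23.9 CPM (log2 fold change -2.37), and was lost without NI replicate 2 (-2.18) or FT 1 week replicate 3 (-1.83). *Hspa1l*, of low level (3.93, 4.76 and 3.36 CPM in NI, 1.26, 0.387 and 1.18 CPM at FT 1 week), was the only member that fell in all 6 fits (-1.70). The constitutive *Hspa8* had the opposite form, with 4097, 4222 and 3893 CPM in NI and 1551, 3838 and 3800 CPM at FT 1 week. The genes by which replicate 1 lay furthest from the other samples of its group were all higher in it. *Dusp1* had 364 CPM beside 54.2 and 43.4, *Klf2* 274 beside 38.7 and 34.9, *Nr4a1* 148 beside 21.7 and 14, *Ier2* 75.4 beside 8.20 and 6.94, *Hspa1b* 88.6 beside 10.3 and 12.6, and the unnamed gene model *Gm10785* 69.7 beside 9.67 and 9.38 CPM. How replicate 1 came to differ was not tested.

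**Figure D3:**
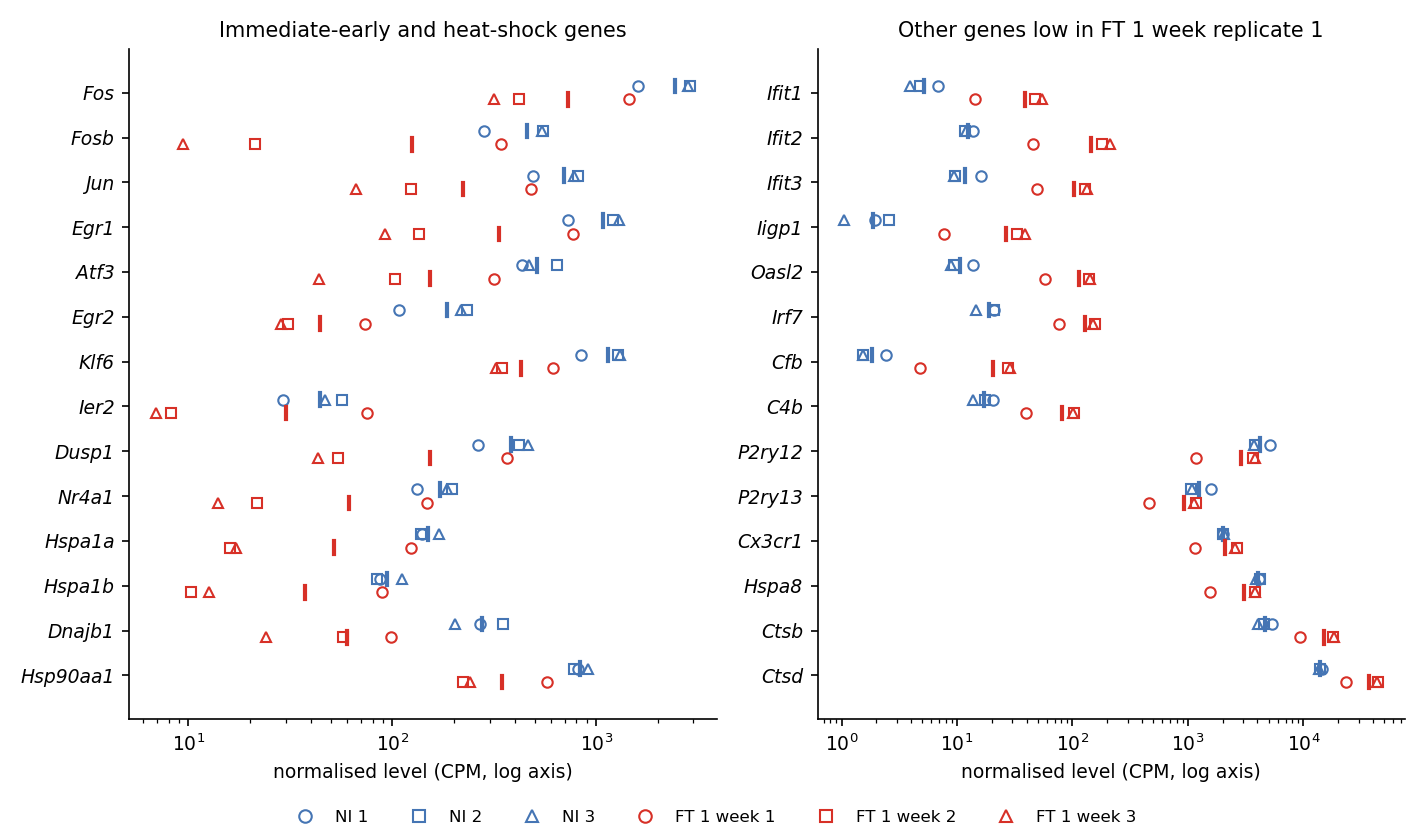
Levels in each NI (blue) and FT 1 week (red) sample, in CPM on a log axis, with bars at group means, for chosen immediate-early and heat-shock genes (left) and for genes that were low in FT 1 week replicate 1 (right). The genes were picked to show how replicate 1 (red circle) differed: it is above replicates 2 and 3 on the left (Fosb 343 CPM beside 21.1 and 9.46) and below them on the right (Ifit2 45.5 CPM beside 182 and 211).

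Of 51 cytosolic ribosomal protein genes 35 were higher and 0 lower, with a median log2 fold change of 1.10 and a range from 0.03 to 1.47. *Rpl19* had 606, 486 and 653 CPM in NI and 1700, 1237 and 1947 CPM at FT 1 week (log2 fold change 1.47, limma adjusted p = 0.000115), and among the next largest rises were those of *Rpl15* (1.37), *Rpl24* (1.36) and *Rplp0* (1.36). Since the median was close to the 2-fold limit, the count moved with the fit, from 25 without NI replicate 2 to 45 without FT 1 week replicate 2, to 5 with columns scaled to 1 total (median 0.76) and to 2 with quantile normalization (median 0.69), and 19 genes held in all 6 fits that left out 1 library. Many of these genes have processed pseudogenes that share reads. Of 46 genes of oxidative phosphorylation 42 had a positive log2 fold change (median 0.53, or 0.18 with columns scaled to 1 total). For 19 of them all FT 1 week values lay above all NI values, beside 11.4% of all genes. As DE, 2 were higher and 0 lower, beside 2.86% of all genes higher and 1.2% lower. They were *Ndufa1* (1.13) and *Cox4i1* (1.04), the latter under 2-fold without NI replicate 2 (0.98) or FT 1 week replicate 3 (0.91). Of 22 glycolytic genes 4 were higher, *Aldoa*, *Gapdh*, *Pgk1* and *Pkm*, by 1.09 to 1.01, and 1 was lower, the astrocytic *Aldoc* (-1.63), and 0 of the 5 held in all 6 fits.

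Proliferation genes were near the NI level at FT 1 week. Of 33 cell cycle genes 1 rose, a share near the 2.86% of all genes that were higher. This was *Cdk1*, from 5.06, 6.18 and 5.18 CPM to 13.8, 14.5 and 24.8 CPM (log2 fold change 1.56, limma adjusted p = 8.29e-05). Without FT 1 week replicate 1, 3 rose, with *Aurkb* (1.23) and *E2f1* (1.12) besides *Cdk1* (1.71). The other members that mark dividing cells were not DE, as *Mki67* (5.96, 7.72 and 6.23 CPM in NI, 7.93, 9.83 and 7.57 CPM at FT 1 week) and *Top2a* (9.12, 7.08 and 6.81 CPM in NI, 7.63, 9.83 and 9.54 CPM at FT 1 week). Of 22 DNA repair genes 0 were DE. Among 16 genes of iron and heme metabolism 2 rose, *Blvrb* (1.18) and the ferritin gene *Ftl1* (1.04, lost without NI replicate 1 or 2 or FT 1 week replicate 3 at 0.94, 1.07 and 0.91), and among 24 genes of redox metabolism 3 rose, *Gpx3*, *Cybb*, a subunit of the NADPH oxidase that makes superoxide (1.85), and *Mgst1* (1.21, lost without NI replicate 2 or 3 or FT 1 week replicate 3 at 1.11, 1.12 and 1.01). Without FT 1 week replicate 1 these lists held 4 and 5 higher genes.

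The study itself used lists of 12 pro-inflammatory, 9 anti-inflammatory and 4 astrocyte-associated genes. They were chosen on these samples, so their counts of 9, 6 and 3 higher genes are no independent evidence. All 9 pro-inflammatory genes held in every fit that left out 1 library, among them the lysozyme genes *Lyz2* (711, 695 and 809 CPM in NI, 3415, 4254 and 7195 CPM at FT 1 week, log2 fold change 2.68) and *Lyz1* (2.52), which are near-identical neighbors that may share reads. Of the anti-inflammatory genes 4 held, and *Il2rg*, the common gamma chain of cytokine receptors, rose from 25.1, 23.3 and 23.2 CPM to 69.7, 175 and 176 CPM (2.41). *Alox15* (1.36) was lost without NI replicate 2 or 3 or FT 1 week replicate 2 or 3 (1.35, 1.22, 1.18 and 1.13). *Serpina3n*, a protease inhibitor of reactive astrocytes, rose from 2.68, 0.386 and 0.959 CPM to 26.4, 25.5 and 28.3 CPM (log2 fold change 4.09), and *Vim* from 22.4, 25.2 and 19.1 CPM to 73.2, 43.1 and 48.7 CPM (1.26). *Gfap* had 52.6, 54.6 and 28.3 CPM in NI and 71.4, 119 and 140 CPM at FT 1 week (1.28), and was lost without NI replicate 3 (0.98) or FT 1 week replicate 2 or 3 (1.20 and 1.08).

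Markers of other cells were read in the same libraries. Those of astrocytes were lower at FT 1 week, with 11 of 18 genes down and only *Gfap* up, a median of -1.60, and a summed level of 1050, 752 and 576 CPM in NI and 369, 452 and 498 CPM at FT 1 week. NI replicate 1 held the most of this signal, and without it 4 of the 18 genes were lower, as 4 of the 12 DE genes held in all 6 fits. The glutamate transporter *Slc1a2* fell by 2.04 and was lost without NI replicate 1 (-1.80). Neuronal markers were 0 higher and 5 lower of 14, from 56.1 to 94.1 CPM in sum in NI to 27.7 to 37.4 CPM at FT 1 week, among them *Snap25* (39.4, 28.1 and 21.7 CPM in NI, 4.60, 6.19 and 5.84 CPM at FT 1 week, log2 fold change -2.29) and the neurofilament genes *Nefl*, *Nefm* (-2.14) and *Nefh* (-1.51, lost without NI replicate 2 or 3 or FT 1 week replicate 2 or 3 at -1.41, -1.45, -1.43 and -1.40). Oligodendrocyte markers had 0 DE genes of 12 and overlapping sums (1319 to 2688 CPM in NI, 1175 to 2014 CPM at FT 1 week). Yet 10 of the 12 had a negative log2 fold change (median -0.79), and 6 had all FT 1 week values below all NI values, beside 10.1% of all genes. The abundant myelin gene *Mbp* differed from most of them, with 780, 868 and 486 CPM in NI and 565, 1158 and 1189 CPM at FT 1 week. In bulk samples, fewer cells of a type and less RNA per cell cannot be told apart. The part of such cells in the lower genes was not tested.

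**Figure D4:**
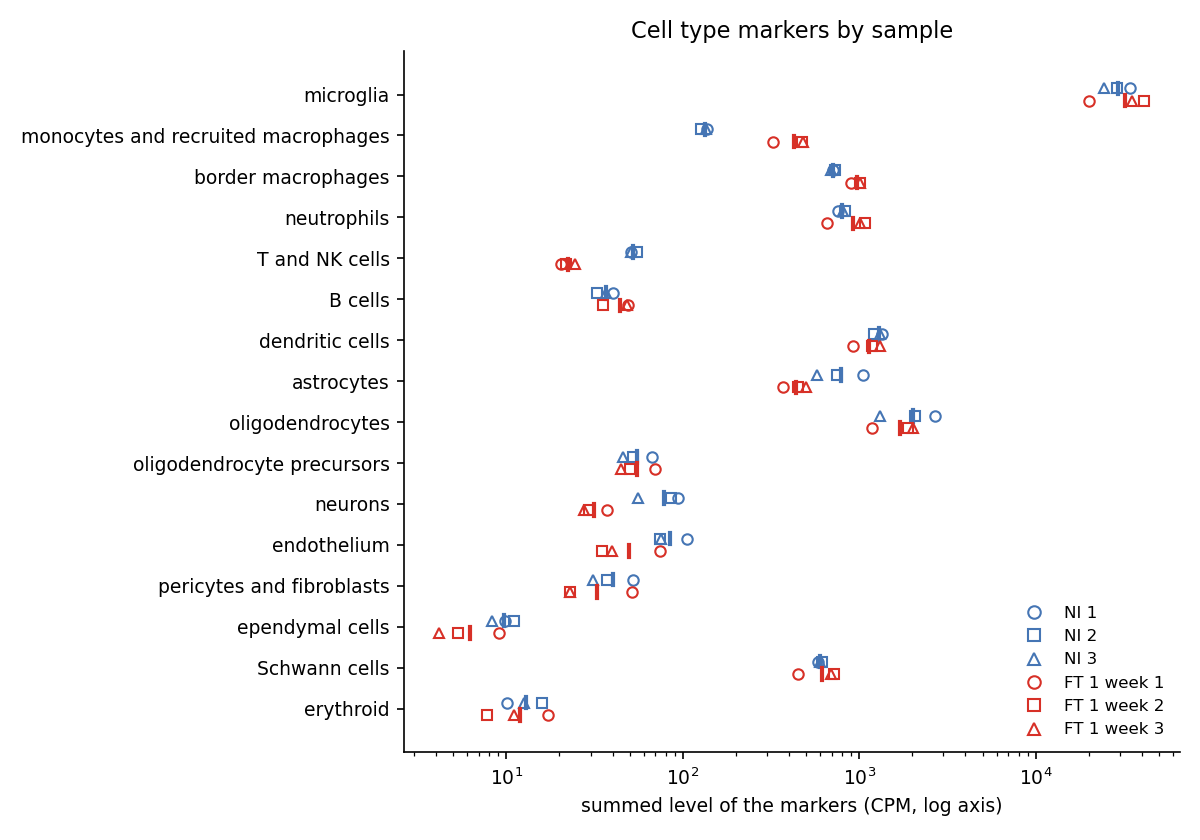
Summed level of the markers of 16 cell types in each NI (blue) and FT 1 week (red) sample, in CPM on a log axis, with bars at group means. Microglial markers are highest in every sample (20187 to 41394 CPM), astrocytic markers go from 576 to 1050 CPM in NI to 369 to 498 CPM at FT 1 week, and monocyte markers from 128 to 137 CPM to 324 to 477 CPM.

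Markers of monocytes and recruited macrophages summed to 137, 128 and 135 CPM in NI and 324, 473 and 477 CPM at FT 1 week. *Fn1* gave most of the sum at FT 1 week, and 3 of 15 genes rose, *Fn1*, *Ms4a4c* (8.10, 6.05 and 10.2 CPM in NI, 24.2, 32.0 and 56.2 CPM at FT 1 week, log2 fold change 2.08) and *Cd44*. The genes that define inflammatory monocytes were not DE. Cells were sorted for high fluorescence, and in a parallel stain of NI and HS cord the paper found such cells negative for LY6C. The levels of these genes thus do not show how many monocytes entered the cord. *Ccr2* had 14.6, 20.1 and 19.3 CPM in NI and 7.93, 28.1 and 29.6 CPM at FT 1 week (log2 fold change 0.08, limma adjusted p = 0.958), and *Ly6c2* had 0.834, 0.772 and 1.63 CPM in NI and 0.593, 0.696 and 1.73 CPM at FT 1 week. Macrophages of the meninges and vessels gave a mixed picture, with 2 markers of 11 higher and 3 lower. *Folr2*, a folate receptor, rose from 3.87, 8.62 and 6.91 CPM to 113, 77.1 and 110 CPM (log2 fold change 3.90, limma adjusted p = 4.55e-08) and *Ms4a7* from 17.3, 15.4 and 18.6 CPM to 93.3, 69.2 and 119 CPM (2.39). *Lyve1*, a hyaluronan receptor, fell from 12.1, 13.5 and 12 CPM to 4.30, 3.56 and 3.86 CPM (-1.57), together with *Mrc1* and *Cd163*. Of 10 markers of oligodendrocyte precursors 1 rose and 0 fell, 6 had a negative log2 fold change and the median was -0.46. Without FT 1 week replicate 1, 2 fell. The marker that rose was *Cspg4*, from 2.50, 3.35 and 2.78 CPM to 26.8, 24.5 and 20 CPM (2.84), while the other defining gene *Pdgfra* was not DE (-0.22).

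Markers of blood cells had low levels or were not DE. Of 10 neutrophil markers 0 were DE, and *S100a8* had means of 18.9 CPM in NI and 11.6 CPM at FT 1 week. The T cell genes *Cd3d*, *Cd3e* and *Cd3g* had means under 2 CPM in both groups, and of 12 T and NK cell markers 1 fell, *Il7r*, from 40.2, 42.5 and 40.3 CPM to 8.52, 12 and 12.9 CPM (log2 fold change -1.86, limma adjusted p = 6.68e-06). Of the 5 B cell and 10 dendritic cell markers 0 were DE, as were 0 of 10 pericyte, 7 ependymal and 3 erythroid markers. *Pecam1* was the only endothelial marker of 10 called lower, from 17.3, 17.0 and 13.6 CPM to 5.93, 6.03 and 7.65 CPM (-1.23). All 10 endothelial markers had a negative log2 fold change (median -0.77), as did all 7 ependymal markers (median -0.425). Of the 6 Schwann cell markers 1 fell, *Egr2*, which is also an immediate-early gene.

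The FT 1 week samples were set directly against FT 72 h to place these levels in time. At 1 week 139 genes (0.827%) were higher and 440 (2.62%) lower than at 72 h. Among the lists, cell cycle genes had the most lower members, 30 of 33, with a median of -2.81. *Top2a*, a topoisomerase of dividing cells, had 172 to 207 CPM at FT 72 h and 7.63 to 9.83 CPM at FT 1 week (log2 difference -4.37, limma adjusted p = 3.6e-11), and *Ccnb1*, *Rrm2*, *Pbk*, *Fam64a* and *2810417H13Rik* differed by -4.30 to -4.62. Also lower at 1 week were 12 of 22 DNA repair genes and 7 of 23 annexin, S100 and galectin genes, such as *Lgals1* (174 to 313 CPM at FT 72 h, 36.4 to 72.3 CPM at FT 1 week, -2.08) and *S100a6* (-2.06), as well as *Fn1* (-1.29), *Spp1* (-1.15) and *Ccr2* (-2.17). Higher at 1 week were *C3* (12 to 26.7 CPM at FT 72 h, 88.8 to 113 CPM at FT 1 week, 2.51), *Cxcl13* (3.21), *Madcam1* (2.78), *Cxcl9* (2.34), the zinc transporter *Slc39a4* (2.07), *Slamf8* (2.04), *Ccl5* (1.94) and *Apoc1* (1.61). Some of the largest rises over NI were not DE between these times, as *Gpnmb* (0.81, limma adjusted p = 0.12), *Igf1* (0.73, 0.11) and *Cst7* (0.66, 0.16). The count of 579 genes was 361 when only these groups entered the fit.

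Fewer genes separated FT 1 week from FT 2 weeks. At 1 week 4 genes (0.0238%) were higher, *Folr2*, *Gpx3*, *Wfdc17* and *Pde2a*, and 8 (0.0476%) were lower, with 773 genes at an unadjusted limma p under 0.05. *Folr2* had 77.1 to 113 CPM at 1 week and 14.9 to 20.8 CPM at 2 weeks (log2 difference 2.52, limma adjusted p = 0.00054). *Gpx3* had 83.1 to 126 CPM and 23.7 to 34.3 CPM (1.93, 8.4e-05). *Mmp12*, a macrophage elastase, had 11.6 to 17.7 CPM at 1 week and 59.3 to 63.1 CPM at 2 weeks (-2.05), and the integrin gene *Itgax* 47.3 to 52.9 and 151 to 159 CPM (-1.59), so both had risen over NI by 1 week and stood higher again later. *Postn* (-2.12), *Il1rn* (-1.73), *Flt1* (-1.48), *Tubb6* (-1.14) and *Tnfsf13b* (-1.03) were also among the genes lower at 1 week. The number of genes that differed depended on single libraries, with 25 without FT 2 weeks replicate 1 and 4 without FT 2 weeks replicate 2 or 3, and 20, 7 and 6 without FT 1 week replicates 1, 2 and 3, respectively.

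**Figure D5:**
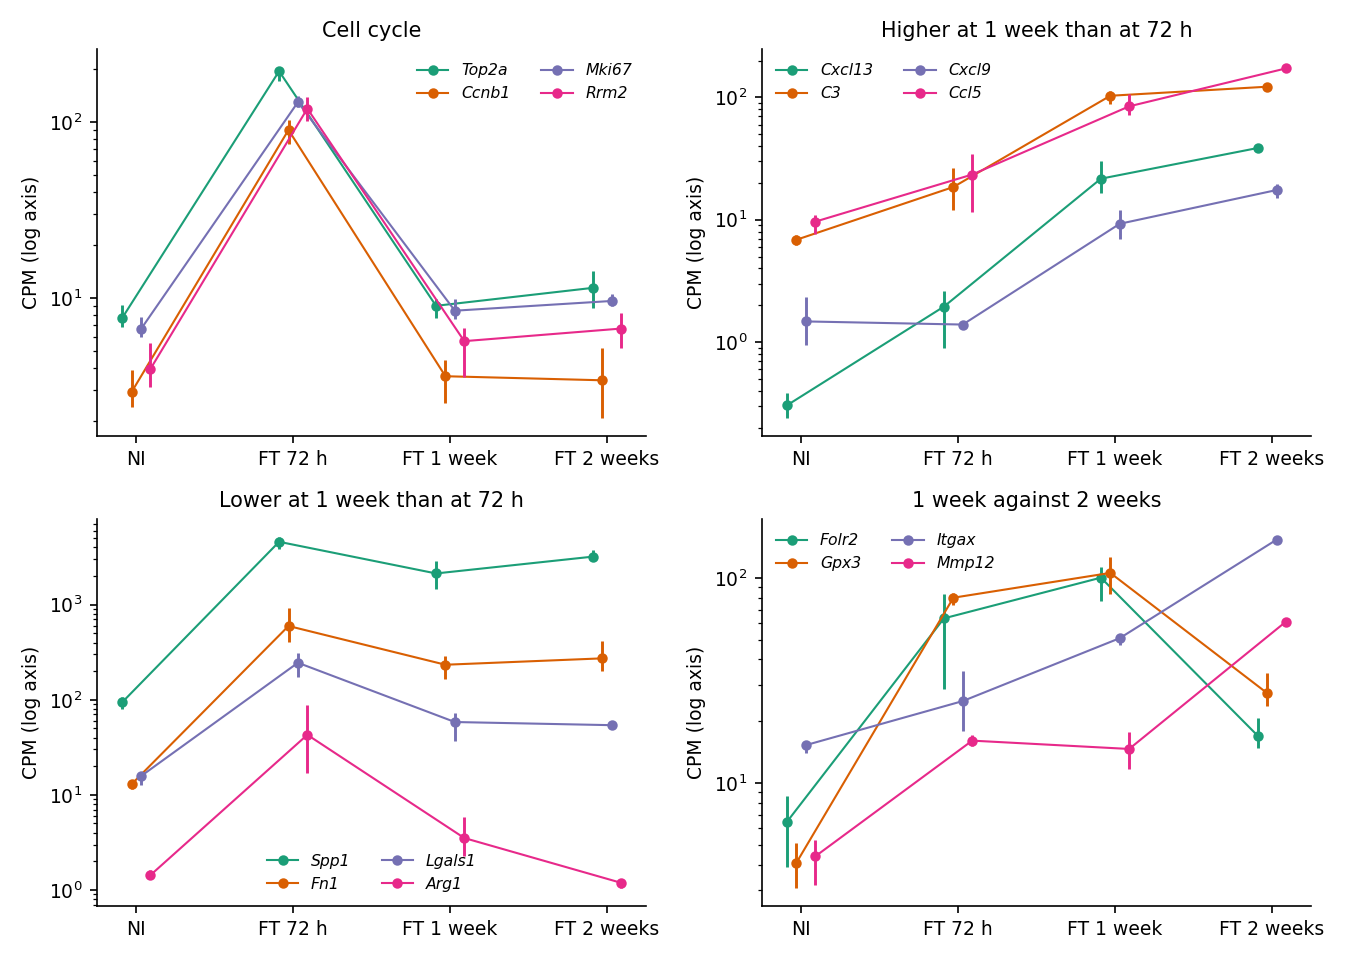
Mean level (points) with the lowest and highest sample (vertical lines), in CPM on a log axis, in NI, FT 72 h, FT 1 week and FT 2 weeks (n = 3 each) for 16 genes. Cell cycle genes peak at FT 72 h (Top2a 195 CPM on average, 9.0 CPM at FT 1 week), Cxcl13 and C3 are higher at FT 1 week than at FT 72 h, and Folr2 and Gpx3 are lower at FT 2 weeks than at FT 1 week.

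Against HS 1 week, which had 2 samples, limma called 0 genes (0.0%), with 724 at an unadjusted p under 0.05; DESeq2 called 7 and the edgeR likelihood ratio test 8. The interval of the difference was wide for many genes. For *Igf1* the HS samples had 110 and 112 CPM and the difference was 0.78 on the log2 scale (95% confidence interval 0.18 to 1.38), for *C3* 0.55 (0.06 to 1.04), and for *Spp1* -0.37 (-0.96 to 0.21). These intervals are per gene, are not adjusted, and do not show that the injuries act alike.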

How the data were processed

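RNA of sorted microglia was sequenced with a library kit that does not keep the strand. The authors aligned reads to mm10 with TopHat 2.0.9, counted them per gene with HTSeq 0.5.4p3, kept genes with enough counts in at least 2 replicates, and deposited a signal in CPM after edgeR 3.3.6 library-size normalization. All values were whole multiples of a step per sample (336200 of 336200 within 0.001), so reads were recovered for the count tests.

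Values were taken as log2(CPM + 0.5) and fitted with limma 3.58.1 (R 4.3.3) with 1 mean per group over all 20 samples and an intensity trend. DE was an adjusted p under 0.05 (Benjamini-Hochberg) and at least 2-fold. edgeR 4.0.16, DESeq2 1.42.0, other scalings and offsets, and fits without each replicate were alternatives. Only the main limma fit and the edgeR quasi-likelihood test were also run on simulated data. The members and gene lists were chosen with earlier results of these data known. Named genes were the 10 largest non-overlapping rises and falls at 5 CPM or more and genes of the lists the study used. For each list up to 6 called genes were planned, with defining uncalled ones, and for some lists more are named. Up to 6 genes per direction against the other groups, and up to 8 by which FT 1 week replicate 1 stood apart, were added. HS 72 h and HS 2 weeks entered only the fit, and some genes of these lists are not reported here.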

Additional observations from a re-analysis of the deposited data

Results flagged for a closer look

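Some levels at FT 1 week differed from those after the same transection at another time by a direct limma test with Benjamini-Hochberg adjustment. Against FT 72 h, 139 genes were higher and 440 lower at 1 week. The log2 differences of the 6 genes named on the lower side were -4.62 for *Fam64a*, -4.49 for *Ccnb1*, -4.37 for *Top2a*, -4.34 for *2810417H13Rik*, -4.32 for *Rrm2* and -4.30 for *Pbk*. On the higher side they were 3.21 for *Cxcl13*, 2.78 for *Madcam1*, 2.51 for *C3*, 2.34 for *Cxcl9*, 2.07 for *Slc39a4* and 2.04 for *Slamf8*.

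Against FT 2 weeks, 4 genes were higher and 8 lower at 1 week. The log2 differences were 2.52 for *Folr2*, 1.93 for *Gpx3*, 1.53 for *Wfdc17* and 1.14 for *Pde2a*, and -2.12 for *Postn*, -2.05 for *Mmp12*, -1.73 for *Il1rn*, -1.59 for *Itgax*, -1.48 for *Flt1* and -1.14 for *Tubb6*.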

How the results depend on the processing

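No DE call of a named gene changed direction under any alternative that was run. Against NI, the 480 higher and 201 lower genes were 236 and 670 with columns scaled to 1 total and 859 and 323 without the 2-fold limit. Leaving out 1 sample gave 364 to 628 higher and 95 to 450 lower genes. Against FT 72 h the 579 genes were 361 with only the groups compared, 888 without the fold limit and 483 to 661 with 1 sample left out. Against HS 1 week the 0 genes were 1 with quantile normalization, 8 with the edgeR likelihood ratio test, 7 with DESeq2 and 0 to 1 with 1 sample left out, the 1 without FT 1 week replicate 1. Against FT 2 weeks the 12 genes were 6 with only the groups compared, 40 with the likelihood ratio test, 33 with DESeq2 and 4 to 25 with 1 sample left out. Apart from the fold limit and the fits with fewer samples, the cause was not tested. Where HS 1 week lost a sample, the lone sample was assumed to vary like the other groups.

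Same-numbered NI and FT 1 week samples deviated with correlations of -0.274, 0.155 and -0.00284, so the numbers were not taken as pairs. With the replicate number as a block, 478 genes were higher and 186 lower than in NI, and 5 differed from FT 2 weeks. Genes near 3 reads per library (0.179 to 0.386 CPM in NI) have folds that depend on the value added.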
